A study of Mus musculus with 6 samples.

Results

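The 48 genes described here encode the proteins that copy DNA in S phase: origin licensing factors, the replicative helicase, polymerases, the sliding clamp with its loaders, nucleotide supply, the S phase checkpoint, chromatin replication and the E2F and cyclin E regulators. They were taken by a list of names, drawn up with earlier results of these data known, from a table of read counts per gene symbol with 55367 symbols. All 48 were listed, had between 10 and 4024 counts in each library and passed the filter on low counts, which left 15055 genes to test. The RNA, selected by poly(A), came from an FRC line of mouse; FRC stands for fibroblastic reticular cell, a fibroblast of lymph nodes that builds the scaffold on which T cells move. The study asks how such fibroblasts respond to breast tumour cells. Cells spent 96 h, with fresh medium every 48 h, in 1 of 3 conditioned media supplemented with 2% serum and antibiotics: control medium from the same FRC line, medium from the mouse mammary carcinoma line 67NR or medium from the line 4T1. Both carcinoma lines descend from 1 mammary tumour, and 4T1 spreads to distant organs in mice, which 67NR does not. Each group had 2 libraries, 6 in all, and each medium had been conditioned for 24 h in RPMI without supplements. No group had unconditioned medium, so factors released by tumour cells, factors of FRCs that are missing and nutrients used up during conditioning cannot be told apart. The labels do not say whether libraries of a group came from separate cultures, so the p-values speak for the spread among these libraries alone, which may be technical.

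Total counts per library ran from 13.6 M to 21.8 M (M, 1e6 counts), and 1 count stood for 0.0463 to 0.0743 counts per 1e6 scaled counts (CPM). The spread between replicate libraries, as a variance, was 4.19 times that of counting alone for control medium, 4.26 times for 67NR and 8.21 times for 4T1. Of 14 FRC and fibroblast markers 11 had counts, among them podoplanin (Pdpn), Pdgfrb and Vcam1, while Thy1, Ccl19 and Ccl21a had 0 counts in every library, which allows up to 3 counts each. The summed level of this list was 25460 to 26380 CPM in control, 30250 to 31930 in 67NR medium and 19350 to 19690 in 4T1 medium. Single markers went both ways. Of the 10 tested, 4 were higher and 5 lower in 4T1 than in control medium, with a median log2 fold change of -0.03. In 67NR medium 3 were higher and 2 lower, with a median of 0.02. Epithelial and mammary carcinoma markers (9 of 13 with counts) summed to 8.32 to 9.55, 6.57 to 6.76 and 2.02 to 3.31 CPM in the same order, with Epcam, Cldn3, Cldn4 and Esrp1 at 0. Leukocyte markers (8 of 13) summed to 7.06 to 8.47, 11.7 to 12.6 and 5.01 to 5.07 CPM, with Cd3e, Adgre1, Tyrobp and S100a8 among those at 0. Endothelial markers (7 of 8) summed to 14.1 to 16.1, 23.7 to 26.6 and 34.3 to 35.8 CPM, most of it Emcn, with Prox1 at 0. Of the 4 endothelial markers tested, 1 was higher and 2 were lower in 4T1 than in control medium, each at least 2-fold. RNA encoded by the mitochondrial genome made up 1.322 and 1.87% of the control counts, 1.96 and 2.28% of the 67NR counts and 2.11 and 2.37% of the 4T1 counts. The part of these markers in the results below was not tested.

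Replication starts at origins, where the origin recognition complex with Cdc6 and Cdt1 loads the ring of Mcm2 to Mcm7 onto DNA before S phase. Kinases then turn the ring, with Cdc45 and the GINS complex, into the active helicase, and polymerases with the clamp PCNA copy both strands. Most genes of this machinery are transcribed by E2F factors, which pocket proteins hold back in resting cells and which cyclin E and its kinase release, so their RNA is low in resting cells and high in cycling cells. In RNA of a whole culture, fewer cells in cycle and less RNA per cell cannot be told apart.

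Promoter windows from RefSeq (GRCm38.p6, from 250 bases before to 50 bases after the start of a transcript) were searched for the words by which E2F sites are known. Windows matched 41 of the 48 genes, 49 windows in all. Ccne2, Exo1, Gins1, Gins2, Mcm4, Pole and Rfc2 had none in the table. The stretches printed here run from 200 bases before the start to the last base before it, 5′ to 3′ on the strand of the gene, with RefSeq's starts, which can lie elsewhere than the gene starts of GENCODE given further on. Capitals mark TTTCCCGC, TTTCGCGC, TTTGCCGC or TTTGGCGC, or the reverse complement of one of them, and words may overlap. Mcm5 (chr8:75109309-75109508, plus strand) and Mcm6 (chr1:128359706-128359905, minus strand) are helicase subunits with several words. Cdc6 (chr11:98907951-98908150, plus strand) had the lowest log2 fold change of the list in 67NR medium. Gins3 (chr8:95633359-95633558, plus strand) is a member with 1 word and a smaller change in 67NR medium than the median of the list. Orc6 (chr8:85299432-85299631, plus strand) is the member that changed least in 67NR medium.
Mcm5: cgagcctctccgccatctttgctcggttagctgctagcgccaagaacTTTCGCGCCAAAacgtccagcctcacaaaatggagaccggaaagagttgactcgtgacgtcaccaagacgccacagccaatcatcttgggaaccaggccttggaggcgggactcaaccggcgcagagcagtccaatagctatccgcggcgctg
Mcm6: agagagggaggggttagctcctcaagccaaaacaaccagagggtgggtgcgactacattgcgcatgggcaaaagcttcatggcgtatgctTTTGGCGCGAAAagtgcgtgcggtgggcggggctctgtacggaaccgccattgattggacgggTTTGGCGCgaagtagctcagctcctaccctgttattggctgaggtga
Cdc6: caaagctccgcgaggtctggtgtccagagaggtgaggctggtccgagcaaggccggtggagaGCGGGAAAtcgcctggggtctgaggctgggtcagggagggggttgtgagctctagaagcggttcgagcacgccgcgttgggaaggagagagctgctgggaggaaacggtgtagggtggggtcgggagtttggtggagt
Gins3: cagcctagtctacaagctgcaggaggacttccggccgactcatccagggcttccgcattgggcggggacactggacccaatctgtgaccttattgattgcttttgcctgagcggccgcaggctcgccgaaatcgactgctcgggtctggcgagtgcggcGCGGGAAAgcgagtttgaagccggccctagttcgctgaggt
Orc6: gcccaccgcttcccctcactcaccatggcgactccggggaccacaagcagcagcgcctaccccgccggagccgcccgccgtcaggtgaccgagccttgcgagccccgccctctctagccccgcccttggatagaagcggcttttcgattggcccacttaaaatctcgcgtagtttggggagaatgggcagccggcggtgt

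Mcm5 held 2 overlapping words, starting 153 and 149 bases before the start, and Mcm6 held 3, of which 2 overlap. The word of Cdc6 lies at -138 and that of Gins3 at -41, and no word stands in the Orc6 window. Over the whole windows, 18 of 49 (36.7%) held at least 1 E2F word on either strand, against 2.26% of all 32851 promoter windows of 300 bases. Of 39 other replication genes 31 had windows, 37 in all, and 24.3% of these held an E2F word. Of 22 repair genes outside S phase 18 had windows, 20 in all, with an E2F word in 10.0%. At least 2 words stood in 12.2% of the members' windows and in 0.0974% of all windows. The genes with a word were Orc1, Cdc6, Cdt1, Mcm3, Mcm5, Mcm6, Mcm7, Gins3, Pola1, Pold1, Rfc3, Lig1, Clspn, Brca2, Uhrf1, Dnmt1, Pclaf and E2f2. The CCAAT word, known for binding NF-Y, stood in 61.2% of the members' windows against 37.4% of all, and in 60.0% of 20 windows of repair genes that act outside S phase. The words TTTGAA and TTCGAA, the cell cycle homology element of genes that peak in mitosis, stood in 18.4% against 19.2% of all windows. Among 23 windows, of 22 of the 25 mitosis genes, the shares were 4.35% for E2F words, 82.6% for CCAAT and 78.3% for the homology element. The 18 genes with an E2F word had a median log2 fold change of -1.08 in 67NR against control medium, and 17 of them fell. The 23 genes with a window and no word had a median of -1.25, and 20 of them fell. Only the exact words given above were searched, so genes without one may hold E2F sites spelled otherwise. This comparison therefore cannot separate genes with E2F sites from genes without them. A match is a description of the letters, and binding was not measured. The list was chosen by role in S phase, so a high share of E2F words can follow from the choice of genes. The part of these words in the changes given below was not tested.

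**Figure D1:**
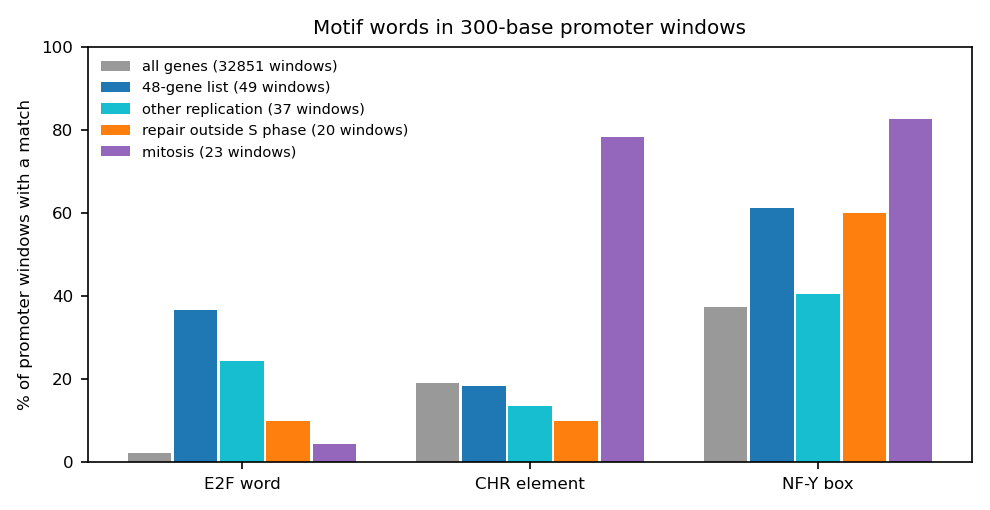
Share of 300-base promoter windows (vertical axis, %) that hold at least 1 E2F word, 1 cell cycle homology element (CHR) or 1 CCAAT word (NF-Y box), for all windows and 4 gene lists. E2F words are at 36.7% in the 48-gene list and 4.35% in mitosis genes, and the homology element at 18.4% and 78.3%.

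In 67NR medium 44 of the 48 genes fell and 0 rose, where 14.6% of all genes tested were called lower and 13% higher (edgeR quasi-likelihood test, Benjamini-Hochberg adjusted p under 0.05 over all genes tested). Their median log2 fold change (log2 of the fitted ratio to control medium, given below with its standard error, SE) was -1.26, against 0.0032 over all genes tested, and 31 fell at least 2-fold, as did 2.38% of all genes tested. In 4T1 medium 42 fell and 0 rose, where 19.2% of all genes tested were called lower and 19.9% higher, with a median log2 fold change of -0.68 against 0.01 over all genes tested. Of these, 10 fell at least 2-fold, as did 4.12% of all genes tested. Both 67NR libraries lay below both control libraries for all 48 genes (33.5% of all genes tested), and both 4T1 libraries did for 45 (32.8%). The exceptions in 4T1 medium were Tyms, Brca2 and E2f2. Summed over the 48 genes, the level was 1561 and 1667 CPM in control, 774 and 757 CPM in 67NR and 928 and 1044 CPM in 4T1 medium. The mean sum was thus 47.4% of control in 67NR and 61.1% in 4T1 medium. Levels stood in the order control, 4T1, 67NR without overlap for 33 of the 48 genes, an order found in 4.98% of all genes tested. The tumour media share the control libraries, so the comparisons with control are not independent of each other.

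**Figure D2:**
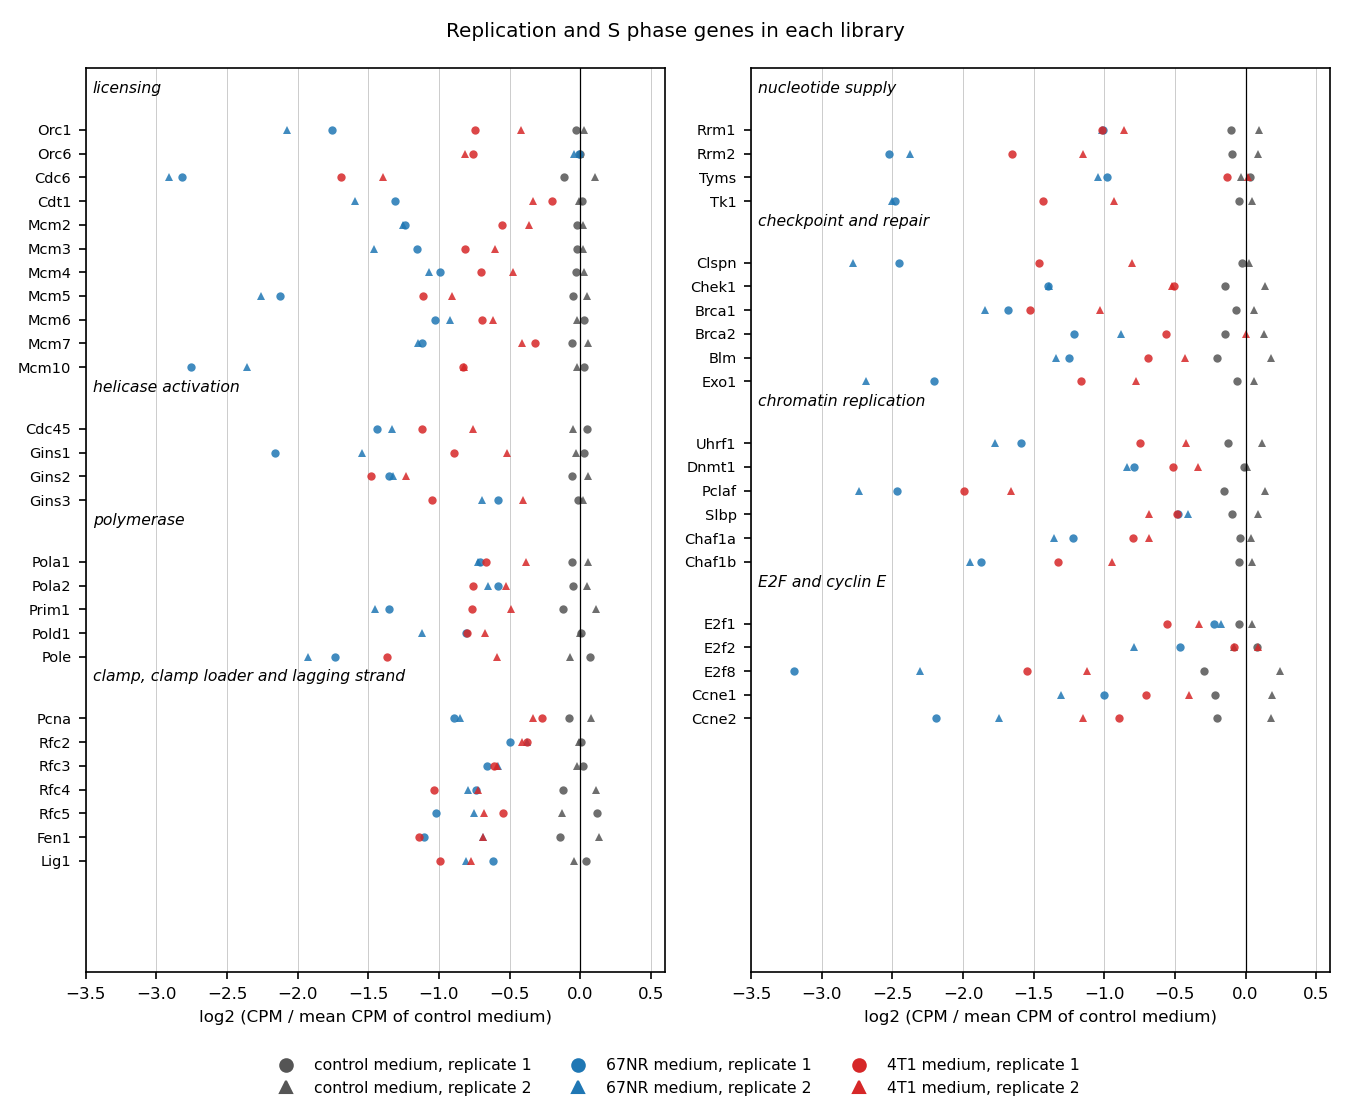
Log2 ratio of CPM in each library to the gene's mean CPM in control medium (horizontal axis), with 1 row per gene grouped by role, grey for control, blue for 67NR and red for 4T1 medium, and a circle or triangle for replicate 1 or 2. Blue points lie left of the grey points in all 48 rows and red points in 45, and in 33 rows red lies between blue and grey without overlap.

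Origin licensing was the largest role, with 11 genes. In 67NR medium 10 fell and Orc6 did not pass (median log2 fold change -1.30), and in 4T1 medium 9 fell while Orc1 and Cdt1 did not pass (median -0.65). The loading factor Cdc6 (chromosome 11, 98907801 to 98923940, plus strand, GENCODE M21 on GRCm38) had the lowest log2 fold change of the whole list in 67NR medium. It stood at 8.46 and 9.88 CPM in control, 1.30 and 1.22 CPM in 67NR and 2.84 and 3.49 CPM in 4T1 medium. This is a log2 fold change of -2.85 (SE 0.21) in 67NR medium (edgeR adjusted p = 5.84e-07) and -1.51 (SE 0.18) in 4T1 medium (edgeR adjusted p = 2.93e-05). Cdt1, its partner in loading the ring, was at 17.6 and 17.3 CPM in control, 7.04 and 5.79 CPM in 67NR and 15.2 and 13.8 CPM in 4T1 medium. Its log2 fold change was -1.44 (SE 0.13) in 67NR medium and -0.27 (SE 0.12) in 4T1 medium, where it did not pass (edgeR adjusted p = 0.0866) although the 4T1 libraries lay below both control libraries. Orc1, the ATPase of the origin recognition complex, was at 3.22 and 3.34 CPM in control, 0.973 and 0.779 CPM in 67NR and 1.96 and 2.45 CPM in 4T1 medium. It fell in 67NR medium (log2 -1.89, SE 0.28) and did not pass in 4T1 medium (log2 -0.56, SE 0.25, edgeR adjusted p = 0.0951).

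Orc6 (chromosome 8, 85299632 to 85308278, plus strand), the smallest subunit of the origin recognition complex, had another order of levels than the rest of its role. It stood at 71.1 and 71.0 CPM in control, 70.8 and 69.0 CPM in 67NR and 42.0 and 40.3 CPM in 4T1 medium. Control and 67NR libraries lay close together (log2 -0.02, SE 0.07, edgeR adjusted p = 0.83), and both 4T1 libraries were far below (log2 -0.79, SE 0.07, edgeR adjusted p = 1.86e-06). Per exon length it was at 28.8 CPM per kb in control, 28.3 in 67NR medium and 16.7 in 4T1 medium, the highest of the 48 genes in control and 67NR medium and below Pcna (18.8) in 4T1 medium. Orc6 lies head to head with the sorting gene Vps35, and 6.93% of its exon bases overlap exons of Vps35 on the opposite strand. Vps35 was at 451, 453 and 294 CPM on average in the 3 media, with log2 fold changes of 0.01 in 67NR and -0.62 in 4T1 medium against control. Whether the counting used strand is not given in the sources used here, and the part of Vps35 reads in the counts of Orc6 was not tested.

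The 6 ring subunits fell in both tumour media. Mcm5 (chromosome 8, 75109569 to 75128439, plus strand) changed most, with 58.6 and 62.6 CPM in control, 13.9 and 12.7 CPM in 67NR and 28.1 and 32.3 CPM in 4T1 medium. All 6 libraries keep the order control, 4T1, 67NR, with log2 fold changes of -2.19 (SE 0.10) in 67NR medium (edgeR adjusted p = 2.74e-08) and -0.999 (SE 0.09) in 4T1 medium (edgeR adjusted p = 1.72e-06). Mcm2 had the highest mean CPM of the role over all 6 libraries, though not in 67NR medium, at 90.4 and 93.3 CPM in control, 38.9 and 38.5 CPM in 67NR and 62.6 and 71.5 CPM in 4T1 medium. Mcm4 was at 77.6 and 80.5 CPM in control, 39.7 and 37.6 CPM in 67NR and 48.5 and 56.9 CPM in 4T1 medium. For Mcm2 and Mcm4, too, no library of 1 medium overlapped those of another. Mcm6 was at 80.7 and 77.9 CPM in control, 38.9 and 41.9 CPM in 67NR and 48.9 and 51.8 CPM in 4T1 medium. Mcm3 was at 55.1 and 56.7 CPM in control, 25.1 and 20.3 CPM in 67NR and 31.7 and 36.7 CPM in 4T1 medium, and Mcm7 at 43.5 and 47.2 CPM in control, 20.8 and 20.5 CPM in 67NR and 36.3 and 34.2 CPM in 4T1 medium. The log2 fold changes of these 5 ran from -1.30 (Mcm3) to -0.97 (Mcm6) in 67NR medium and from -0.70 (Mcm3) to -0.36 (Mcm7) in 4T1 medium. Mcm10, which joins the helicase when origins fire and is no part of the ring, was at 13.7 and 13.2 CPM in control, 1.99 and 2.63 CPM in 67NR and 7.57 and 7.63 CPM in 4T1 medium. It fell by 2.55 on the log2 scale (SE 0.16) in 67NR medium and by 0.83 (SE 0.14) in 4T1 medium.

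Since the ring holds each subunit in equal number, levels were also set per exon length. In control medium the means ran from 10.3 CPM per kb for Mcm7 to 22.02 for Mcm4, a ratio of 2.15. In 67NR medium they ran from 3.33 for Mcm5 to 10.8 for Mcm4, a ratio of 3.24, and in 4T1 medium from 7.56 for Mcm5 to 14.7 for Mcm4, a ratio of 1.94. The ratio of highest to lowest subunit was 2.2 and 2.1 in the control libraries, 3.18 and 3.31 in the 67NR libraries and 1.92 and 2.06 in the 4T1 libraries. RNA of the subunits was therefore spread over a wider range in both 67NR libraries than in the others, with Mcm5 lowest, whereas Mcm4 was highest in all 6 libraries. Lengths are those of all annotated exons together, and reads of Mcm7 may be split with a copy: 16.5% of its 50-base words are found in the pseudogene Gm5487, which fell alongside it (log2 -1.23 in 67NR and -0.41 in 4T1 medium).

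**Figure D3:**
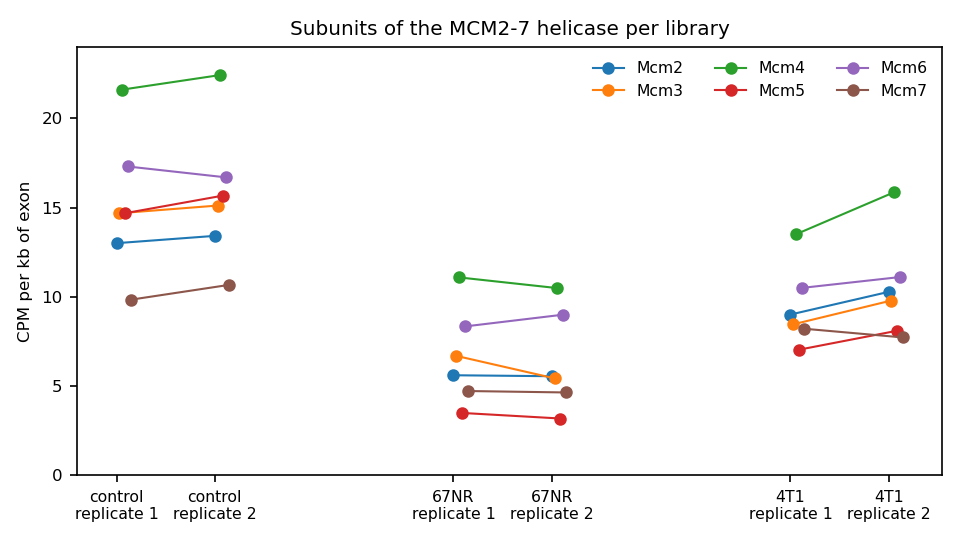
CPM per kb of exon (vertical axis) of Mcm2 to Mcm7 in each of the 6 libraries (horizontal axis), with lines joining the libraries of a medium. Mcm4 is highest throughout, and Mcm5 goes from the middle of the range in control medium (15.2 CPM per kb on average) to the bottom in 67NR medium (3.33).

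The 4 genes of helicase activation fell in both tumour media, with median log2 fold changes of -1.36 in 67NR and -0.80 in 4T1 medium. Cdc45, which binds the ring in the active helicase, was at 15.1 and 14.0 CPM in control, 5.37 and 5.79 CPM in 67NR and 6.69 and 8.61 CPM in 4T1 medium. Gins2, highest of the role in CPM, was at 19.1 and 20.7 CPM in control, 7.78 and 7.93 CPM in 67NR and 7.10 and 8.44 CPM in 4T1 medium. The libraries of the tumour media overlapped for Gins2, a subunit of the GINS complex, and its log2 fold changes against control were -1.33 (SE 0.12) in 67NR and -1.34 (SE 0.12) in 4T1 medium. Gins1, another GINS subunit, was at 5.50 and 5.28 CPM in control, 1.204 and 1.85 CPM in 67NR and 2.91 and 3.76 CPM in 4T1 medium, and it had the lowest log2 fold change of the role in 67NR medium (-1.82, SE 0.24). Its fall in 4T1 medium (log2 -0.68, SE 0.22, edgeR adjusted p = 0.0262) no longer passed without control replicate 1 (edgeR adjusted p = 0.119), control replicate 2 (0.071) or 4T1 replicate 1 (0.112), and the alternatives ranged from 0.00396 to 0.119. Gins3 was at 8.57 and 8.77 CPM in control, 5.79 and 5.35 CPM in 67NR and 4.19 and 6.54 CPM in 4T1 medium. Its 4T1 libraries lay far apart, and its log2 fold change of -0.67 (SE 0.19) went to -0.42 without 4T1 replicate 1 (edgeR adjusted p = 0.0714, range 0.000318 to 0.0714 over the alternatives) and to -1.05 without 4T1 replicate 2. That call also ended without control replicate 1 (edgeR adjusted p = 0.0542) or 2 (0.0544), and the call of Gins3 in 67NR medium (log2 -0.63, SE 0.18) ended without any 1 of the 4 control and 67NR libraries (edgeR adjusted p from 0.069 to 0.112, range 0.000666 to 0.112 over the alternatives). Of the exon bases of Gins2, 67.3% overlap Gse1 on the opposite strand, which was at 36.7 CPM in control, 41.2 in 67NR medium and 25.4 in 4T1 medium on average. Gse1 did not pass in 67NR medium and was lower in 4T1 medium than in control (log2 -0.52, edgeR adjusted p = 0.000825) and 67NR medium (log2 -0.69, edgeR adjusted p = 5.49e-05), and its part in the counts of Gins2 was not tested.

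All 5 polymerase genes fell in both tumour media, with median log2 fold changes of -0.96 in 67NR and -0.63 in 4T1 medium. Pole, the catalytic subunit of the leading strand polymerase epsilon, had the lowest log2 fold change of the role in both. It was at 24.1 and 21.9 CPM in control, 6.90 and 6.03 CPM in 67NR and 8.92 and 15.3 CPM in 4T1 medium, and its log2 fold changes were -1.83 (SE 0.19) and -0.91 (SE 0.18). Its 4T1 libraries differed more than those of the other media, and without 4T1 replicate 2 the log2 fold change in 4T1 medium was -1.38. Pola1, the catalytic subunit of polymerase alpha, which lays down primers with primase, was highest of the role, at 38.9 and 42.1 CPM in control, 24.7 and 24.5 CPM in 67NR and 25.5 and 31.1 CPM in 4T1 medium. Its partner Pola2 was at 25.1 and 26.9 CPM in control, 17.4 and 16.5 CPM in 67NR and 15.3 and 18.1 CPM in 4T1 medium, and the primase subunit Prim1 at 18.5 and 21.7 CPM in control, 7.88 and 7.35 CPM in 67NR and 11.8 and 14.3 CPM in 4T1 medium. Prim1 fell most of these in 67NR medium (log2 -1.39, SE 0.13), and the 2 polymerase alpha subunits had log2 fold changes of -0.71 and -0.61 there. Pold1, the catalytic subunit of the lagging strand polymerase delta, was at 28.6 and 28.5 CPM in control, 16.3 and 13.1 CPM in 67NR and 16.4 and 17.9 CPM in 4T1 medium.

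The clamp, its loaders and the enzymes that join lagging strand fragments had the smallest median fall in 67NR medium of the 8 roles. Of 7 genes 6 fell in each tumour medium, with median log2 fold changes of -0.75 in 67NR and -0.63 in 4T1 medium, and 0 fell 2-fold. The clamp Pcna (chromosome 2, 132249162 to 132253314, minus strand) was at 52.6 and 58.4 CPM in control, 29.8 and 30.9 CPM in 67NR and 46.0 and 44.1 CPM in 4T1 medium. It fell in 67NR medium (log2 -0.87, SE 0.08) and less far in 4T1 medium (log2 -0.30, SE 0.08, edgeR adjusted p = 0.00962), a call that ended without control replicate 2 (edgeR adjusted p = 0.112, range 0.0031 to 0.112 over the alternatives). The pseudogene Pcna-ps2 holds 19.1% of the 50-base words of Pcna and had about as many counts, 1053 in control replicate 1, and its log2 fold changes were -0.96 and -0.36. With the counts of both summed, an alternative chosen after the data were seen, the log2 fold changes were -0.92 in 67NR and -0.33 in 4T1 medium.

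The clamp loader subunits moved within a narrow band. Rfc2 was at 25.9 and 25.6 CPM in control, 18.3 and 19.8 CPM in 67NR and 19.9 and 19.3 CPM in 4T1 medium, and Rfc3 at 18.6 and 18.1 CPM in control, 11.6 and 12.2 CPM in 67NR and 12.0 and 12.2 CPM in 4T1 medium. Rfc4 was at 13.9 and 16.4 CPM in control, 9.08 and 8.71 CPM in 67NR and 7.37 and 9.15 CPM in 4T1 medium, and Rfc5 at 17.1 and 14.3 CPM in control, 7.74 and 9.34 CPM in 67NR and 10.7 and 9.80 CPM in 4T1 medium. Every tumour medium library was below every control library for all 4, with log2 fold changes between -0.89 (Rfc5) and -0.44 (Rfc2) in 67NR medium and between -0.85 (Rfc4) and -0.39 (Rfc2) in 4T1 medium. The call of Rfc2 in 67NR medium ended without 67NR replicate 1 (edgeR adjusted p = 0.058, range 0.000454 to 0.058 over the alternatives). Exons of Rfc2, Rfc4 and Rfc5 overlap those of Lat2, Eif4a2 and Wsb2 on the opposite strand by 15.1, 12.7 and 10.7% of their bases. Eif4a2 averaged 242, 234 and 335 CPM in control, 67NR and 4T1 medium, and Wsb2 93.9, 88.4 and 65.3 CPM. Their log2 fold changes in 4T1 against control medium were 0.47 and -0.52, and their part in the counts of Rfc4 and Rfc5 was not tested. DNA ligase Lig1 was at 50.2 and 47.4 CPM in control, 31.8 and 27.8 CPM in 67NR and 24.5 and 28.6 CPM in 4T1 medium, the lowest log2 fold change of the role in 4T1 medium (-0.87, SE 0.10, against -0.71, SE 0.09 in 67NR medium). The flap endonuclease Fen1, which trims lagging strand fragments, had the lowest level of the 48 genes, at 1.35 and 1.64 CPM in control, 0.695 and 0.925 CPM in 67NR and 0.676 and 0.926 CPM in 4T1 medium. Its log2 fold changes of -0.86 (SE 0.35) and -0.86 (SE 0.37) did not pass (edgeR adjusted p = 0.0867 and 0.0834), and 78.8% of its exon bases overlap the antisense gene Gm10143, itself at 0 to 3 counts per library. The part of this overlap in the low level was not tested.

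Nucleotide supply had the largest median fall of the 8 roles in both tumour media. All 4 genes fell in 67NR medium (median log2 fold change -1.73) and 3 in 4T1 medium (median -1.04). The large subunit of ribonucleotide reductase, Rrm1, had the highest CPM of the 48 genes, at 209 and 240.0 CPM in control, 112 and 111 CPM in 67NR and 111 and 123 CPM in 4T1 medium. Its small subunit Rrm2 (chromosome 12, 24708241 to 24714146, plus strand), the limiting and cell cycle regulated partner, was at 53.2 and 60.6 CPM in control, 9.91 and 10.9 CPM in 67NR and 18.1 and 25.6 CPM in 4T1 medium. Rrm1 fell by nearly the same log2 fold change in 67NR (-1.01, SE 0.08) and 4T1 medium (-0.93, SE 0.08), and the tumour media did not pass against each other. Rrm2 was lower in 67NR (log2 -2.44, SE 0.14) than in 4T1 medium (log2 -1.36, SE 0.13), without overlap. Per exon length the means of Rrm1 and Rrm2 were 20.4 and 20.5 CPM per kb in control, 10.1 and 3.76 in 67NR medium and 10.7 and 7.89 in 4T1 medium. The salvage enzyme thymidine kinase Tk1 was at 24.8 and 26.5 CPM in control, 4.59 and 4.53 CPM in 67NR and 9.46 and 13.5 CPM in 4T1 medium, the lowest log2 fold change of the role in 67NR medium (-2.49, SE 0.15). Thymidylate synthase Tyms, which makes thymidylate from scratch, was at 28.3 and 27.1 CPM in control, 14.0 and 13.4 CPM in 67NR and 25.2 and 28.1 CPM in 4T1 medium. It fell in 67NR medium (log2 -1.01, SE 0.10), and its 4T1 libraries overlapped control (log2 -0.05, SE 0.09, edgeR adjusted p = 0.676). Summed with its pseudogene Tyms-ps, the log2 fold changes of Tyms were -1.002 and -0.01.

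The 6 checkpoint and repair genes fell in 67NR medium, all at least 2-fold (median log2 fold change -1.57), and 5 fell in 4T1 medium (median -0.73). Claspin (Clspn), which carries the stress signal from the fork to the kinase Chek1, was at 14.5 and 14.9 CPM in control, 2.69 and 2.14 CPM in 67NR and 5.34 and 8.44 CPM in 4T1 medium, the lowest log2 fold change of the role in 67NR medium (-2.60, SE 0.20). Chek1 was at 7.27 and 8.84 CPM in control, 3.06 and 3.07 CPM in 67NR and 5.68 and 5.61 CPM in 4T1 medium. The nuclease Exo1 was at 8.41 and 9.14 CPM in control, 1.90 and 1.36 CPM in 67NR and 3.92 and 5.12 CPM in 4T1 medium. Clspn and Exo1 fell 6.06-fold and 5.33-fold in 67NR medium by the fit, and Chek1 2.6-fold. Brca1 (chromosome 11, 101488764 to 101551955, minus strand), which directs recombination at broken forks, was at 16.7 and 18.3 CPM in control, 5.47 and 4.87 CPM in 67NR and 6.08 and 8.55 CPM in 4T1 medium, the lowest log2 fold change of the role in 4T1 medium (-1.24, SE 0.15). The helicase Blm was at 9.86 and 12.9 CPM in control, 4.77 and 4.48 CPM in 67NR and 7.03 and 8.44 CPM in 4T1 medium. Brca2, which acts in recombination at forks and had the highest mean CPM of the role over all 6 libraries, stood at 12.9 and 15.6 CPM in control, 6.16 and 7.74 CPM in 67NR and 9.67 and 14.3 CPM in 4T1 medium. It fell in 67NR medium (log2 -1.03, SE 0.18), while 4T1 and control libraries overlapped (log2 -0.23, SE 0.18, edgeR adjusted p = 0.337). Without 4T1 replicate 2, Brca2 passed in 4T1 medium (log2 -0.55, edgeR adjusted p = 0.024, range 0.024 to 0.99 over the alternatives). The 4T1 calls of Chek1 (edgeR adjusted p = 0.0265) and Blm (edgeR adjusted p = 0.0201) ended without control replicate 2 (edgeR adjusted p = 0.174 and 0.175), 4T1 replicate 1 (0.0515 and 0.0833) and, for Chek1, 4T1 replicate 2 (0.0736), with ranges over the alternatives of 0.0143 to 0.174 and 0.002 to 0.175.

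In chromatin replication all 6 genes were lower in each tumour medium (median log2 fold changes -1.48 in 67NR and -0.66 in 4T1 medium). The PCNA clamp associated factor Pclaf (chromosome 9, 65890237 to 65903266, plus strand) had the lowest log2 fold change of the 48 genes in 4T1 medium. It was at 35.8 and 44.0 CPM in control, 7.23 and 5.99 CPM in 67NR and 10.0 and 12.6 CPM in 4T1 medium, which gave -1.80 (SE 0.14) in 4T1 medium (edgeR adjusted p = 3.26e-07) and -2.58 (SE 0.14) in 67NR medium (edgeR adjusted p = 6.57e-08). Its pseudogene Gm15428, at 215 and 144 counts in control medium, had log2 fold changes of -2.62 in 67NR and -1.79 in 4T1 medium. The maintenance methyltransferase Dnmt1, highest of the role, was at 78.4 and 79.7 CPM in control, 45.6 and 44.2 CPM in 67NR and 55.3 and 62.6 CPM in 4T1 medium. Uhrf1, which brings Dnmt1 to freshly copied DNA, was at 42.7 and 50.3 CPM in control, 15.5 and 13.6 CPM in 67NR and 27.7 and 34.7 CPM in 4T1 medium, with a log2 fold change of -1.67 (SE 0.12) in 67NR medium, beside -0.82 (SE 0.08) for Dnmt1. Of its 50-base words 14.7% stand in the pseudogene Gm5648. The chromatin assembly factor subunits Chaf1a and Chaf1b, which place histones on new DNA, were at 29.3 and 31.0 CPM in control, 12.9 and 11.8 CPM in 67NR and 17.4 and 18.8 CPM in 4T1 medium for Chaf1a and 15.1 and 16.1 CPM in control, 4.26 and 4.04 CPM in 67NR and 6.22 and 8.12 CPM in 4T1 medium for Chaf1b. Exons of Chaf1a overlap those of Ubxn6 on the opposite strand over 52.5% of its exon bases, and Ubxn6 did not pass in either comparison. Slbp, which binds the stem-loop of histone messages, was at 30.3 and 34.4 CPM in control, 23.2 and 24.3 CPM in 67NR and 23.0 and 20.2 CPM in 4T1 medium. It moved least of the role in 67NR medium (log2 -0.44, SE 0.10), a call that ended without control replicate 2 (edgeR adjusted p = 0.0654) or 67NR replicate 1 (0.0588), and the alternatives ranged from 0.000159 to 0.0654.

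The E2F and cyclin E genes were split. The activator E2f1 (chromosome 2, 154559407 to 154569892, minus strand) was at 32.3 and 34.5 CPM in control, 28.5 and 29.5 CPM in 67NR and 22.7 and 26.6 CPM in 4T1 medium. It did not pass in 67NR medium (log2 -0.20, SE 0.09, edgeR adjusted p = 0.129) and fell in 4T1 medium (log2 -0.43, SE 0.10, edgeR adjusted p = 0.00304). In 67NR medium E2f1 passed without 4T1 replicate 1 (edgeR adjusted p = 0.0492) or 4T1 replicate 2 (0.0498), and the alternatives ranged from 0.0492 to 0.42. The activator E2f2 was low throughout, at 2.49 and 2.23 CPM in control, 1.71 and 1.36 CPM in 67NR and 2.23 and 2.51 CPM in 4T1 medium, and passed in neither comparison (edgeR adjusted p = 0.101 in 67NR and 0.999 in 4T1 medium). The atypical repressor E2f8, itself a target of E2F, was at 7.27 and 10.6 CPM in control, 0.973 and 1.80 CPM in 67NR and 3.04 and 4.09 CPM in 4T1 medium, the lowest log2 fold change of the role in both (-2.66, SE 0.28 and -1.28, SE 0.25). Cyclin E is encoded by Ccne1 and Ccne2. Ccne1 was at 9.19 and 12.2 CPM in control, 5.33 and 4.33 CPM in 67NR and 6.56 and 8.12 CPM in 4T1 medium, and Ccne2 at 10.5 and 13.7 CPM in control, 2.64 and 3.601 CPM in 67NR and 6.49 and 5.45 CPM in 4T1 medium. Both fell in 67NR medium (log2 -1.12, SE 0.18 and -1.94, SE 0.19). Exons of Ccne2 overlap those of Ints8 on the opposite strand by 17.4% of their bases. Ints8 averaged 80.5, 72.6 and 61.7 CPM in control, 67NR and 4T1 medium, and its part in the counts of Ccne2 was not tested. The call of Ccne1 in 4T1 medium (log2 -0.51, SE 0.18, edgeR adjusted p = 0.0345) ended without control replicate 2 (log2 -0.32, edgeR adjusted p = 0.258) or 4T1 replicate 1 (edgeR adjusted p = 0.136), and the alternatives ranged from 0.00347 to 0.258.

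Between the tumour media, 32 of the 48 genes were higher in 4T1 than in 67NR medium, where 23.5% of all genes tested were called higher, and 1 was lower, where 19.9% were called lower. Genes called in either direction made up 43.4% of all genes tested here, 27.6% in 67NR and 39.1% in 4T1 against control medium. The median log2 fold change of 4T1 against 67NR medium was 0.62, against 0.03 over all genes tested. In licensing 10 of 11 genes were higher in 4T1 medium (median 0.79), and in the checkpoint and repair role 6 of 6 were (median 0.84). Both 4T1 libraries lay above both 67NR libraries for 36 genes (37.2% of all genes tested) and below them for 3 (32.8%). At least 2-fold higher were 12 of the 48 genes, as were 5.51% of all genes tested. Mcm10 had the largest difference (log2 1.72, SE 0.17, edgeR adjusted p = 4.08e-06), followed by Clspn (1.53, SE 0.22), Exo1 (1.48, SE 0.23) and E2f8 (1.38, SE 0.32). In nucleotide supply Tk1, Rrm2 and Tyms were higher in 4T1 medium (log2 1.34, SE 0.17, 1.08, SE 0.15 and 0.96, SE 0.10), and in chromatin replication 5 of 6 genes were, led by Uhrf1 (1.11, SE 0.13). Orc6 was the gene lower in 4T1 medium (log2 -0.77, SE 0.07, edgeR adjusted p = 1.7e-06).

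Of the 15 genes that did not pass between the tumour media, 11 belong to helicase activation, the polymerases or the clamp role. Of the 7 clamp, loader and lagging strand genes Pcna was higher in 4T1 medium (log2 0.57, SE 0.08), and Rfc2, Rfc3, Rfc4, Rfc5, Fen1 and Lig1 did not pass (median of the role 0.03). Pola1, Pola2 and Pold1 did not pass, while Prim1 (log2 0.79, SE 0.14) and Pole (0.93, SE 0.20) were higher. The difference of Pole went to 0.46 without 4T1 replicate 2 and still passed (edgeR adjusted p = 0.0392). Gins2 and Gins3 did not pass (log2 -0.01, SE 0.14 and -0.03, SE 0.19), and Gins1 was higher (1.14, SE 0.26). Rrm1 (log2 0.08, SE 0.08), Slbp (-0.14, SE 0.10), E2f1 (-0.23, SE 0.09, edgeR adjusted p = 0.0643) and E2f2 (0.62, SE 0.26, edgeR adjusted p = 0.0738) complete the genes that did not pass, which does not show that their levels were equal.

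Some of these calls depend on which libraries enter the fit. In the comparison of the tumour media, Cdc45 (log2 0.47, SE 0.16, edgeR adjusted p = 0.0275) and Brca1 (log2 0.52, SE 0.17, edgeR adjusted p = 0.028) no longer passed without 4T1 replicate 2 (log2 0.26 and 0.23, edgeR adjusted p = 0.273 and 0.358), 67NR replicate 1 (0.145 and 0.0568) or 67NR replicate 2 (0.0696 and 0.153), with ranges over the alternatives of 0.00632 to 0.273 and 0.00283 to 0.358. Ccne1 (log2 0.61, SE 0.19) no longer passed without 67NR replicate 2 (edgeR adjusted p = 0.143) or 4T1 replicate 2 (0.15, range 0.00134 to 0.15), Brca2 (log2 0.80, SE 0.19) without 4T1 replicate 2 (log2 0.47, edgeR adjusted p = 0.0561, range 1.72e-07 to 0.0561) and Mcm6 (log2 0.32, SE 0.08) without 67NR replicate 1 (edgeR adjusted p = 0.0751, range 0.0016 to 0.0751). Pola1 was called higher in 4T1 medium without 4T1 replicate 1 (log2 0.33, edgeR adjusted p = 0.0103, range 0.0103 to 0.756) and Pold1 without 67NR replicate 1 (log2 0.38, edgeR adjusted p = 0.0493, range 0.0493 to 0.718). Lig1 and E2f1 were called lower in 4T1 medium without 4T1 replicate 2 (edgeR adjusted p = 0.0472 and 0.01, ranges 0.0472 to 0.743 and 0.01 to 0.268). Replicate 1 lay below replicate 2 for 39 of the 48 genes in 4T1 medium, for 34 in control medium and for 17 in 67NR medium, and the median log2 difference in 4T1 medium was -0.23. Without 4T1 replicate 1, 37 genes were lower than in control medium and 33 higher than in 67NR medium, and without 4T1 replicate 2 these counts were 42 and 28, with 3 lower than in 67NR medium.

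**Figure D4:**
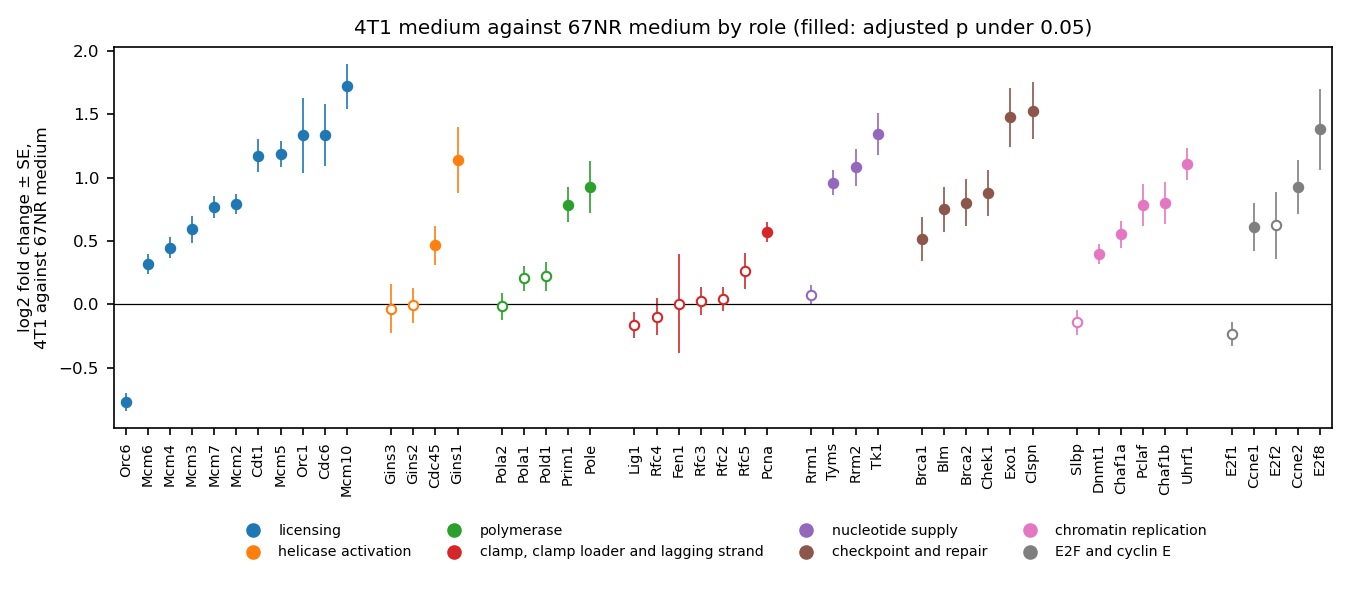
Log2 fold change of 4T1 against 67NR medium (vertical axis) with its standard error for each of the 48 genes, ordered within role, with filled points for adjusted p under 0.05 (edgeR quasi-likelihood test). Clamp loader, ligase and polymerase alpha genes sit near 0, while Mcm10 reaches 1.72 and Orc6 -0.77.

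Other genes of the same pathway had smaller median changes. Both sets were listed with earlier results of these data known, so this difference can reflect the choice of genes. It was not tested. Of 71 further genes of replication, nucleotide supply and S phase chromatin, 57 fell and 2 rose in 67NR medium (median log2 fold change -0.57). In 4T1 medium 28 fell and 9 rose (median -0.13). Shares were 80.3% lower and 2.82% higher in 67NR medium, against 14.6 and 13% of all genes tested. For 4T1 medium they were 39.4% lower and 12.7% higher, against 19.2 and 19.9%. Between the tumour media 42 were higher and 5 lower in 4T1 medium (median 0.42). This is 59.2 and 7.04%, against 23.5 and 19.9% of all genes tested. Among 39 further replication genes, 31 (79.5%) fell in 67NR and 18 (46.2%) in 4T1 medium. Ticrr, which helps origins fire, had the lowest log2 fold change in 67NR medium (-2.04, SE 0.23), and Dscc1, of an alternative clamp loader, the lowest in 4T1 medium (-1.19, SE 0.23). The topoisomerase Top1, the highest of this list in mean CPM over all 6 libraries, fell in 67NR medium (log2 -0.21, SE 0.06) and did not pass in 4T1 medium. Recql4, a helicase needed for origin firing, went opposite ways. It was at 4.98 and 5.43 CPM in control, 1.67 and 2.09 CPM in 67NR and 10.7 and 12.6 CPM in 4T1 medium, a log2 fold change of -1.46 (SE 0.20) in 67NR medium (edgeR adjusted p = 0.000165) and 1.17 (SE 0.16) in 4T1 medium (edgeR adjusted p = 7.52e-05). Pold4, the smallest subunit of polymerase delta, rose in 67NR medium (log2 0.49, SE 0.09).

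Of 17 nucleotide synthesis genes outside the 48, 12 were higher and 1 lower in 4T1 than in 67NR medium. These shares are 70.6 and 5.88%, against 23.5 and 19.9% of all genes tested. Against control medium, 15 (88.2%) fell and 0 rose in 67NR medium, where 14.6% of all genes tested fell and 13% rose. In 4T1 medium 4 fell and 4 rose (23.5% each), near the shares of all genes tested (19.2% lower and 19.9% higher). Their summed level was 70.0% of that in control medium with 67NR medium and 116% with 4T1 medium. The rise of the sum in 4T1 medium, from 1181 and 1182 to 1358 and 1373 CPM, was no larger than that of Ctps alone. The median log2 fold change of the list in 4T1 medium was 0.02. The CTP synthase Ctps was at 120.2 and 129 CPM in control, 57.7 and 60.8 CPM in 67NR and 313 and 323 CPM in 4T1 medium. It fell in 67NR medium (log2 -1.07, SE 0.07) and rose in 4T1 medium (log2 1.36, SE 0.07, edgeR adjusted p = 4.67e-09). Of 15 other S phase chromatin genes 11 fell and 1 rose in 67NR medium, and 6 fell and 2 rose in 4T1 medium. Those that fell were 73.3 and 40.0% of the list, against 14.6 and 19.2% of all genes tested. Those that rose were 6.67 and 13.3%, against 13 and 19.9%. The histone chaperone Asf1b fell most in both (log2 -2.26, SE 0.15 and -1.18, SE 0.14). Cdca7, which works with the remodeller Hells, fell in 67NR medium (log2 -1.05, SE 0.10) and rose in 4T1 medium (0.72, SE 0.09), and the fork remodeller Zranb3 did the reverse (0.52, SE 0.11 and -0.62, SE 0.12).

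Of 25 recombination and fork protection genes, 14 fell and 0 rose in 67NR medium, and 9 fell and 0 rose in 4T1 medium. Medians were -0.53 and -0.21. Those that fell were 56.0 and 36.0% of the list, against 14.6 and 19.2% of all genes tested. The crosslink repair gene Fancd2 fell by 2.43 on the log2 scale (SE 0.20) in 67NR medium, the most of that list. Of 22 repair genes that act outside S phase 3 fell and 0 rose in 67NR medium, and 5 fell and 2 rose in 4T1 medium, with medians of -0.15 and -0.13. The shares that fell, 13.6% in 67NR and 22.7% in 4T1 medium, are near those of all genes tested (14.6 and 19.2%). Among 23 E2F, pocket protein and DREAM genes, which act on S phase promoters, 13 (56.5%) fell and 0 rose in 67NR medium. In 4T1 medium 8 (34.8%) fell and 2 (8.7%) rose, where 19.2% of all genes tested fell and 19.9% rose. The repressor E2f7 was at 10.95 and 12.5 CPM in control, 3.01 and 2.77 CPM in 67NR and 3.18 and 4.58 CPM in 4T1 medium, which like E2f8 was lower in both tumour media (log2 -2.01, SE 0.18 and -1.57, SE 0.18). Cyclin A (Ccna2), the cyclin of S phase and later, was at 65.2 and 74.99 CPM in control, 13.1 and 11.8 CPM in 67NR and 33.7 and 42.3 CPM in 4T1 medium, and fell in both (log2 -2.48, SE 0.12 and -0.87, SE 0.11). The repressor E2f4 did not pass in 67NR medium (log2 -0.18, SE 0.09) and rose in 4T1 medium (0.27, SE 0.09). Of the 9 CDK inhibitors and D-type cyclins tested, 4 fell and 1 rose in 67NR medium (median log2 fold change -0.19). In 4T1 medium 6 fell and 2 rose (median -0.60). Those that fell were 44.4 and 66.7%, against 14.6 and 19.2% of all genes tested. Those that rose, 11.1 and 22.2%, are near the shares of all genes tested (13 and 19.9%). The inhibitor Cdkn1b had the highest log2 fold change in 67NR medium (0.65, SE 0.08) and fell in 4T1 medium (-0.28, SE 0.08), with 122 and 144 CPM in control, 209.6 and 206 CPM in 67NR and 109 and 109 CPM in 4T1 medium.

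Mitosis genes are transcribed after S phase. All 25 fell in both tumour media, where 14.6% of all genes tested fell in 67NR and 19.2% in 4T1 medium. Their median log2 fold changes were -2.26 in 67NR and -0.86 in 4T1 medium, beside -1.26 and -0.68 for the 48 genes. In 67NR medium the mitosis genes lay between -2.70 (Bub1) and -1.91 (Bub1b), while the 48 genes spread from -2.85 (Cdc6) to -0.02 (Orc6). The summed level of mitosis genes was 20.9% of control in 67NR and 55.6% in 4T1 medium, beside 47.4 and 61.1% for the 48 genes. The difference between these lists was not tested. Most histone messages of S phase lack poly(A) tails, and of 22 such histone genes 3 had enough counts to test (H1f2, H1f3 and H2bc4), and these 3 fell in 4T1 medium. In 67NR medium H2bc4 fell, while H1f2 and H1f3 did not pass (edgeR adjusted p = 0.0859 and 0.117).

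**Figure D5:**
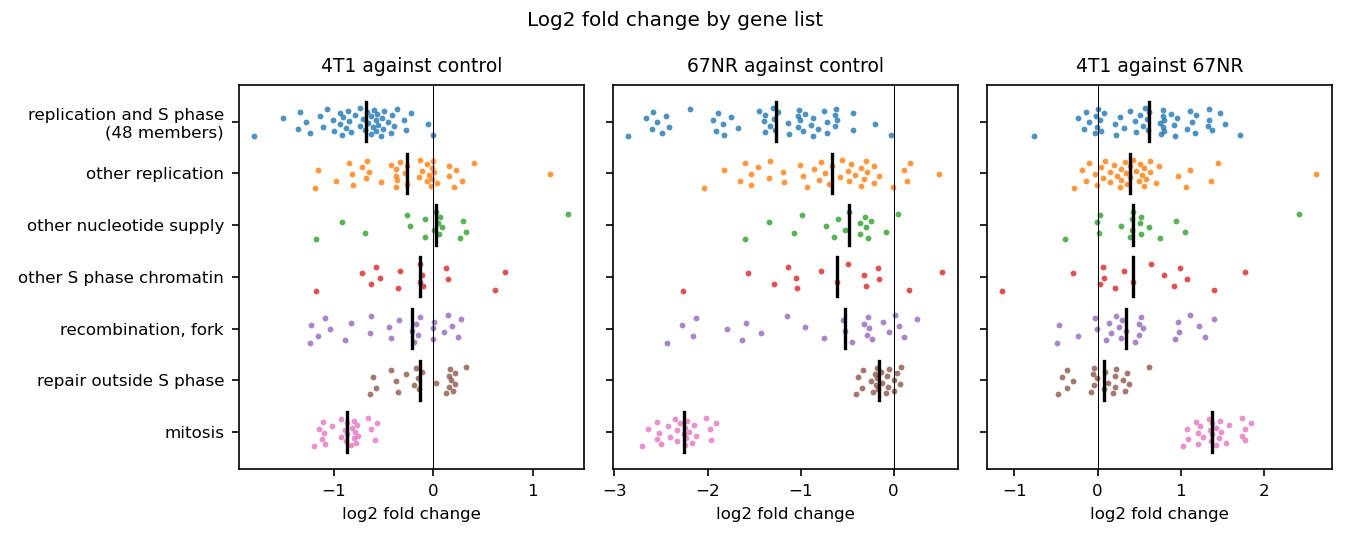
Log2 fold change (horizontal axis) of each gene, 1 point per gene, in 7 lists for the 3 comparisons, with a black bar at the median of each list. Medians for 67NR against control are -1.26 in the 48 genes, -2.26 in mitosis genes and -0.15 in repair genes outside S phase.

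Several members share their start region with a gene on the other strand. The partners Nbr1 of Brca1, Prkdc of Mcm4, Prpf38a of Orc1, Abhd12 of Gins1, Tmem258 of Fen1 and Afmid of Tk1 passed in none of the 3 comparisons. Brca1 and Nbr1 start 194 bases apart, and Nbr1 averaged 165, 185 and 168 CPM in control, 67NR and 4T1 medium, where Brca1 averaged 17.5, 5.17 and 7.32 CPM. Mcm4 and Prkdc start 466 bases apart, with Prkdc at 35.2, 36.0 and 37.9 CPM and Mcm4 at 79.0, 38.7 and 52.7 CPM. Vps35, the partner of Orc6, is the exception among the partners tested and is given above. Pxmp2, which starts 120 bases from Pole, was not among the genes tested. The counts cannot show how reads shared with copies were assigned. Gapdh, a gene with many processed pseudogenes, was counted at 6.57 to 8.50 CPM, and the part of read sharing in the values of Mcm7, Uhrf1 and Pclaf was not tested.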

How the data were processed

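Messenger RNA (poly(A), 500 ng of total RNA, directional NEBNext Ultra II kit, NextSeq500, per the labels' protocols) was sequenced from 2 libraries of each of 3 media. The authors deposited whole read counts per gene symbol, without normalization. Per the submitters' processing notes the tools were Subread and DESeq2 (version 1.32.0), with build mm10. Not given in the sources used here are the aligner settings, the annotation and how strand was treated in counting.

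From these counts, genes were filtered with edgeR (version 4.0.16, R 4.3.3; filterByExpr, minimum count 10, minimum total 15), scaled by TMM and fitted in 1 quasi-likelihood model over all 6 libraries with group means only. This left 15055 of 55367 symbols, 3 residual degrees of freedom and a common biological coefficient of variation of 5.81%. P-values were adjusted by Benjamini-Hochberg over all genes tested, with a threshold of 0.05. The SE of a log2 fold change was its size divided by the square root of F. CPM used TMM scaled totals, and CPM per kb used exons of GENCODE M21. With 0 counts in a library up to 3 counts are possible, and such limits cover counting error only. Fits were tested first on simulated data with the same biological variation for all genes and media. Of genes changed by 0.5 on the log2 scale, 83.1% were recovered in 4T1 against control medium. In 67NR against control 90.9% were recovered, and in 4T1 against 67NR medium 82.7%. False calls made up 2.58, 7.66 and 4.62% of all calls in the same order. The wider spread between the 4T1 libraries was not simulated. Replicate numbers were not used to pair libraries in the main fit. Correlations of replicate differences over 12172 genes were -0.04, 0.04 and 0.10, which cannot show whether a replicate number marks a shared batch. The 48 genes and all lists were chosen with earlier results of these data known. Values by library were given, by role, for the member with the highest mean CPM, those with the lowest log2 fold changes, those that did not pass or were higher, and the others where space allowed. Outside the 48 genes the genes named were those at the extremes of each list, apart from some that are not reported here. Alternatives used DESeq2 (version 1.42.0), limma (version 3.58.1), other scalings, filters and samples. Python 3.11.15, pandas 2.3.3 and matplotlib 3.10.9 served for sequences and figures.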

Additional observations from a re-analysis of the deposited data

How the results depend on the processing

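No call among the 48 genes reversed under any alternative run. Counting only changes of at least 2-fold left 10 genes in 4T1 against control medium and 12 in 4T1 against 67NR medium, and over all genes 1435, 725 (67NR against control) and 1578 instead of 5888, 4150 and 6531. Leaving out 1 library at a time gave 36 to 42 of the 48 genes in 4T1 against control, 41 to 45 in 67NR against control and 30 to 34 in 4T1 against 67NR medium, while the count over all genes in 67NR against control medium ran from 2227 to 5336. A group left with 1 library is assumed to vary like the others. The median of the 48 genes stayed between -0.78 and -0.62, between -1.33 and -1.16 and between 0.48 and 0.73 in these 3 comparisons. With the replicate number as a block 42, 44 and 34 of the 48 genes passed, and E2f1 was lower in 4T1 than in 67NR medium (edgeR adjusted p = 0.044), as it was with DESeq2 size factors (edgeR adjusted p = 0.0453). DESeq2's Wald test called 38, 43 and 30 genes. By that test Gins1, Chek1, Blm and Ccne1 no longer passed in 4T1 against control medium (DESeq2 adjusted p = 0.099, 0.118, 0.0533 and 0.0743), nor did Gins3 in 67NR medium (DESeq2 adjusted p = 0.0619), nor Cdc45, Brca1 and Ccne1 between the tumour media (DESeq2 adjusted p = 0.113, 0.0813 and 0.0536). With only the groups compared in the fit, Cdc45 and Brca1 did not pass between the tumour media (edgeR adjusted p = 0.0527 and 0.0528). The cause of these changes was not tested. Of the values of single genes, leaving out the 2-fold minimum, 2254 kept their call, 41 lost it and 9 gained it. Counts were as low as 10 in the lowest library of Fen1, which limits the precision of its values.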
